A study of Solanum commersonii and Solanum tuberosum with 8 samples.

Results

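The earliest cold response of cultivated potato was followed in leaves of wild-type Solanum tuberosum held at 2°C for 2 h and compared with wild-type S. tuberosum kept warm for the same 2 h. The data are 1 sample of 8 in the series, a deposited column with 1 log2 ratio for each of 11366 array clones, and all 11366 were described. Per the labels, both groups were wild type, were raised at 25°C under a 16 h day and an 8 h night to an age of 3 weeks, and the cold group was moved 8 h after dawn. Total RNA came from leaf tissue. The cold plants stood at a light intensity of 50 and the warm plants at 350 in the same unit, so that the change in light cannot be told apart from that in temperature. The other columns served as context. They were wild-type S. commersonii, a wild potato, after 2 h of cold, both species after 24 h and 7 d of cold, and plants carrying 35S::AtCBF3 in the warm, all compared with warm wild-type plants of their own species. The 24 h and 7 d columns have a warm control other than that of the 2 h column, and the labels do not say whether the wild type set against the transgenic plants was the same material as either. The 35S promoter is active in most plant tissues, and the transgenic plants came from 3 S. commersonii lines and 2 S. tuberosum lines.

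Plants sense a drop in temperature within minutes, and transcription factors of the CBF family are among the first genes switched on. CBF proteins bind a short motif in the promoters of cold-regulated genes, whose products protect membranes and proteins and change sugar metabolism. S. commersonii gains freezing tolerance during a cold period, while S. tuberosum does so little or not at all. Leaves sampled after a short time in the cold mostly show the first wave of regulation, before most late cold-regulated transcripts have built up.

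Each value combines 3 slides into 1 number, with cold treatments from 3 independent experiments per the labels, so that no spread between replicates could be given and no difference was tested. Results are sizes, ranks and counts. Higher and lower clones are those that differed by 2-fold or more, with a log2 ratio of at least 1 or at most -1. A positive ratio was read as higher in the cold, the likely direction from the labels. If the ratio ran the other way, each higher clone would be a lower one. The deposited table gives clone identifiers without gene names and none were assigned here, so neither the leaf origin of the RNA nor any gene group could be checked.

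After 2 h of cold, most clones of S. tuberosum stayed close to the warm control, and those that left it were nearly all higher. The median log2 ratio was -0.0031 and the quartiles were -0.13 and 0.18. The higher clones numbered 895 (7.87%) and the lower clones 38 (0.334%). The upper side had a long shoulder and the lower side a short tail. The 5th percentile was at -0.38 and the 95th at 1.36, while the 1st and the 99th were at -0.69 and 1.99. The counts fell steeply with size. At least 3-fold higher were 369 clones, at least 4-fold 113, at least 8-fold 4 and at least 16-fold 1. On the lower side 2 clones passed 3-fold, 1 passed 4-fold and 0 passed 8-fold. The range of the whole column ran from -2.22 to 4.09.

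**Figure D1:**
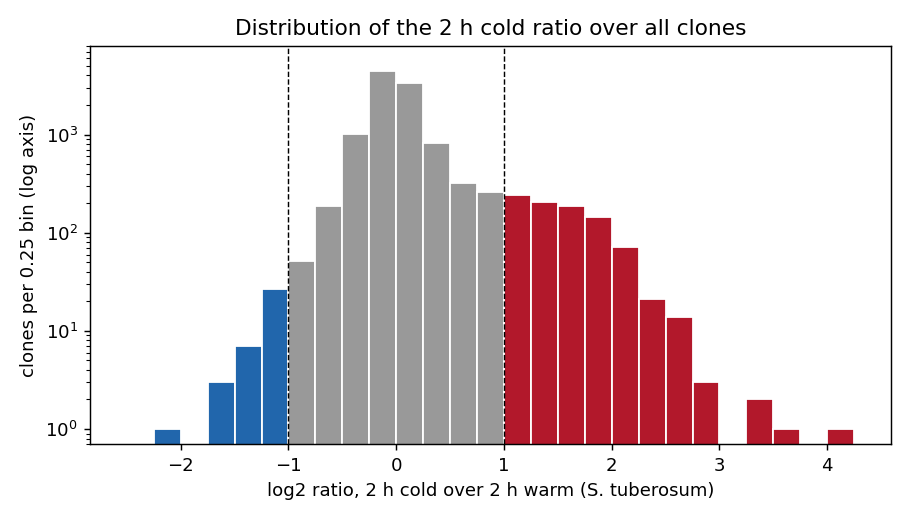
Number of clones (log axis) per 0.25 bin of the log2 ratio of 2 h cold over 2 h warm in S. tuberosum, over all 11366 clones, with bars past 2-fold higher in red and past 2-fold lower in blue. The 895 higher clones form a shoulder that the 38 lower clones do not mirror.

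The highest clone of the column was STMHT69, with a log2 ratio of 4.09 (17.0-fold). In the S. tuberosum time course its log2 ratio was 0.63 at 24 h and 0.46 at 7 d, so that most of its difference from the control was present at 2 h alone. Its course in S. commersonii was 3.18 at 2 h, 0.0023 at 24 h and -0.43 at 7 d. With 35S::AtCBF3 in the warm its log2 ratio was 2.82 in S. tuberosum and 2.40 in S. commersonii. It was thus high at 2 h of cold and with the transgene in both species, and under 2-fold at the later times of cold in both.

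The next highest, STMHH62, had a log2 ratio of 3.74 (13.4-fold) and followed another course. At 24 h in S. tuberosum it reached 4.46, the highest rank of that column, and at 7 d it was at 0.49. It also held the highest rank of the S. commersonii 2 h column, at 4.93. With 35S::AtCBF3 it was at 0.38 in S. tuberosum and at 2.05 in S. commersonii. The other 2 clones past 8-fold had ratios of 3.34 and 3.32 and resembled STMHT69. At 24 h in S. tuberosum they were at 0.89 and 0.28, and with 35S::AtCBF3 they had ratios of 2.37 and 1.80 in that species and of 2.41 and 2.13 in S. commersonii. Whether any of the clones that resembled each other carry the same gene was not tested.

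The top of the ranking differed from the bulk of the higher clones in what the other columns showed. Of the 10 highest clones, 8 were also at least 2-fold higher in both 35S::AtCBF3 columns, against 2.60% of all clones. The number was 10 of 40 in ranks 11 to 50, 3 of 50 in ranks 51 to 100, 7 of 150 in ranks 101 to 250, 11 of 250 in ranks 251 to 500 and 12 of 395 (3.04%) in ranks 501 to 895. The share lay above that of the whole array in each band and was nearest to it in ranks 501 to 895. Over all 895 higher clones, 51 (5.70%) were higher in both 35S::AtCBF3 columns, and these 51 made up 17.2% of the 296 clones that were. With all columns scaled to the spread of the S. tuberosum 2 h column, 4 of the 10 highest clones passed 2-fold in both 35S::AtCBF3 columns, in place of 8.

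In the 24 h column of S. tuberosum the 10 highest clones had the lowest median of the 6 rank bands. In ranks 1 to 10 the median log2 ratio at 24 h was 0.79, and 4 of the 10 clones were still at least 2-fold higher, against 11.9% of all clones at 24 h. In ranks 11 to 50 the median was 3.28, with 34 of 40 clones still higher, and in ranks 51 to 100 it was 3.21, with 45 of 50. From there the median fell with rank, to 2.91 in ranks 101 to 250, 2.48 in ranks 251 to 500 and 1.91 in ranks 501 to 895. Only 1 of the 10 highest clones had a larger ratio at 24 h than at 2 h. The number was 27 of 40 in ranks 11 to 50, 43 of 50 in ranks 51 to 100 and 137 of 150 in ranks 101 to 250. It was 221 of 250 in ranks 251 to 500 and 313 of 395 in ranks 501 to 895. The same was not counted over all clones. The ranks were made from the 2 h values themselves, which by itself favours a fall from 2 h to any other column at the top, and the size of this was not measured.

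**Figure D2:**
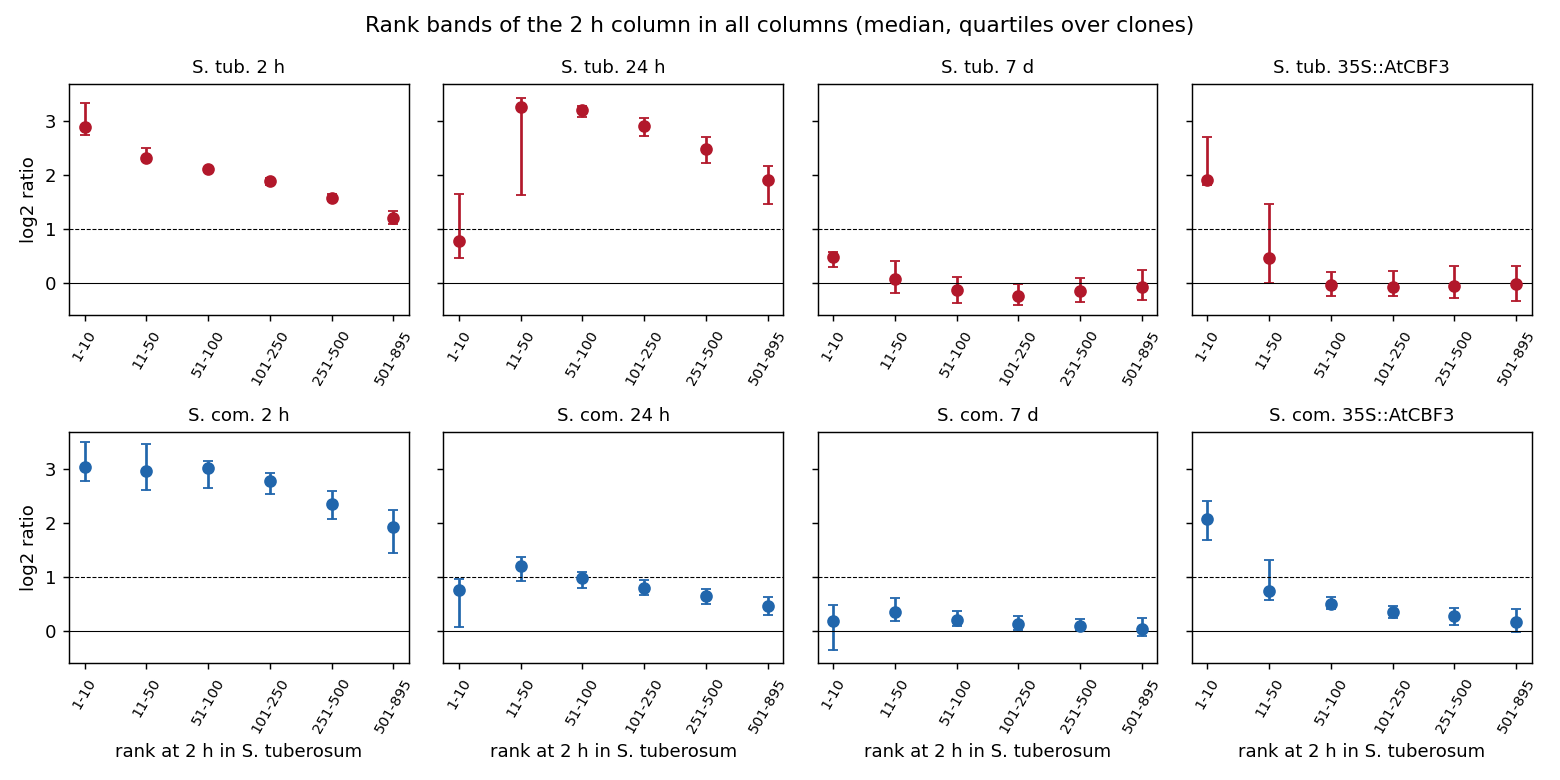
Median log2 ratio (point) with the quartiles over clones (bars) in each of the 8 columns, for the 895 higher clones split into 6 bands by their rank at 2 h in S. tuberosum, with S. tuberosum in red and S. commersonii in blue. The 10 highest clones are the lowest band at 24 h in S. tuberosum (median 0.79) and the highest band in both 35S::AtCBF3 columns (1.92 and 2.09).

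The higher clones were split by their later course in S. tuberosum. Of the 895, 774 were at least 2-fold higher at 24 h and 121 were not, 38 of them lying between 1.5-fold and 2-fold and 83 under 1.5-fold. At 2 h the sets were close in size, with median log2 ratios of 1.52 in the 774 and 1.34 in the 121. At 24 h their medians were 2.44 and 0.35. Both sets had medians near the control at 7 d, -0.11 and -0.13, but they differed in their tails. At least 2-fold lower at 7 d were 8 of the 774 (1.03%) and 17 of the 121 (14.0%), against 6.42% of all clones. At least 2-fold higher were 30 (3.88%) and 7 (5.79%), against 4.04%.

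In the plot of 24 h against 2 h the 774 clones lay along a band. Their log2 ratio at 24 h was a median of 1.58 times that at 2 h, with quartiles of 1.46 and 1.72, and 742 of the 774 were higher at 24 h than at 2 h, which is 82.9% of all 895. The 774 and the 121 were divided by their 24 h values, so that their sizes and their place at 24 h are partly set by that choice. The correlation across these clones was r = 0.64 (rho = 0.72). In S. commersonii at 2 h their log2 ratio was 1.53 times that of S. tuberosum at 2 h (quartiles 1.39 and 1.71), with r = 0.62 (rho = 0.66). These correlations describe clones and not plants. Several clones can carry the same gene, and the clones share slides and RNA in each column. Whether the clones share sequence, so that cross-hybridisation could give them a common signal, was not tested, and the 895 and the 774 are therefore counts of clones and not of genes.

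The 121 clones without a 2-fold ratio at 24 h also differed from the 774 in columns that were not used to divide them. Their median in the S. commersonii 2 h column was 1.04, with 61 of 121 at least 2-fold higher (50.4%), against 752 of the 774 (97.2%) and 10.9% of all clones. At 2 h S. tuberosum had the larger ratio of the 2 species for 90 of the 121 clones, and for 52 of the 774. Both sets were chosen by a high 2 h ratio in S. tuberosum, which by itself favours a larger ratio in that species. The same was not counted over all clones. With 35S::AtCBF3 in S. tuberosum 44 of the 121 passed 2-fold (36.4%), against 45 of the 774 (5.81%) and 6.99% of all clones. In S. commersonii these numbers were 42 (34.7%) and 47 (6.07%), against 5.81% of all clones. The larger set was thus near the array as a whole in its share of clones at least 2-fold higher with the transgene. Its smaller ratios were not alike in the 2 species. With 35S::AtCBF3 in S. commersonii its median was 0.28, and 648 of the 774 were above 0 (against 5820 of all 11366 clones). In S. tuberosum its median was -0.06, and 338 of the 774 were above 0 (against 5772).

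**Figure D3:**
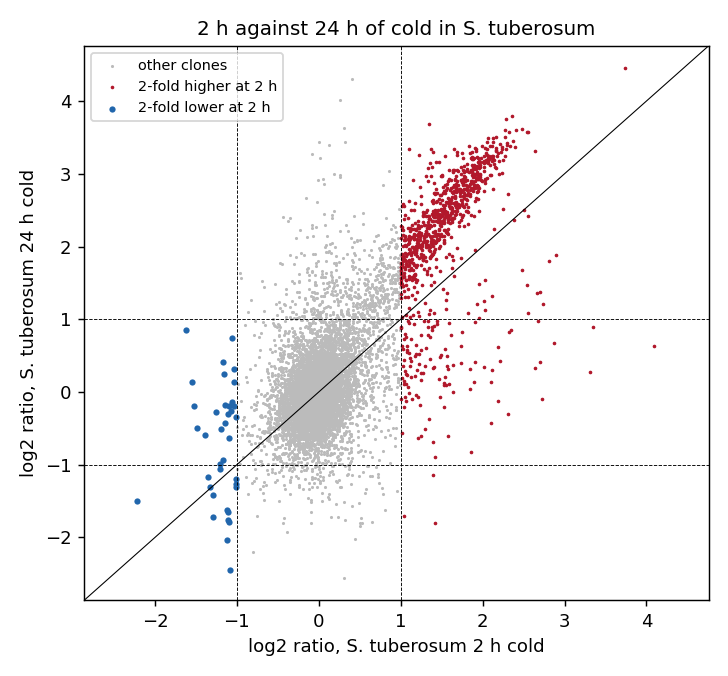
Log2 ratio at 24 h against that at 2 h of cold in S. tuberosum for all clones, with clones 2-fold higher at 2 h in red, 2-fold lower in blue, the other clones in grey, dashed lines at 2-fold and a solid line at equal values. Most red points form a band above the line of equal values (742 of the 774 still higher at 24 h), and a scattered group lies below it.

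By 7 d few of the higher clones still stood away from the control in S. tuberosum. At least 2-fold higher were 37 of the 895 (4.13%, against 4.04% of all clones) and 25 were at least 2-fold lower (2.79%, against 6.42%). The 37 clones had medians of 1.44 at 2 h, 1.99 at 24 h and 1.36 at 7 d. Of them 26 were also higher with 35S::AtCBF3 in S. tuberosum (against 6.99% of all clones) and 21 in S. commersonii (against 5.81%). The 25 clones went from a median of 1.31 at 2 h to 0.13 at 24 h and -1.30 at 7 d. The share higher at 7 d was thus near that of the array as a whole. In S. commersonii 125 of the 895 clones were at least 2-fold higher at 24 h (14.0%, against 2.65% of all clones) and 7 lower (against 1.24%). At 7 d 27 were higher there (3.02%, against 3.1%) and 12 lower (against 5.42%).

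Below the 2-fold threshold lay a further 463 clones between 1.5-fold and 2-fold higher. Their median log2 ratio was 0.77 at 2 h and 1.05 at 24 h in S. tuberosum, where 240 of them had passed 2-fold (against 11.9% of all clones). In S. commersonii at 2 h it was 1.11, with 253 of 463 at least 2-fold higher (against 10.9%). Clones between 2-fold and 3-fold had medians of 1.28, 2.02 and 2.01 in the same columns, and clones at least 4-fold higher had medians of 2.16, 3.17 and 2.98. In the S. tuberosum 2 h column the order of these medians was fixed by how the groups were cut. At 24 h in S. tuberosum and at 2 h in S. commersonii the medians of the 463 were also the lowest of these groups. At 7 d in S. tuberosum 52 of the 463 were at least 2-fold lower (11.2%, against 6.42% of all clones) and 19 higher (4.10%, against 4.04%). Of the clones between 2-fold and 3-fold, 3.99% were lower at 7 d and 3.99% higher.

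The question between the species at 2 h was how far the cultivated potato showed the response of its wild relative. Of the 895 higher clones, 813 also passed 2-fold in S. commersonii (against 10.9% of all clones), which is 90.8% of the S. tuberosum list and 65.5% of the 1241 in S. commersonii. In this shared set S. tuberosum had the smaller ratio for most clones. The difference of S. tuberosum minus S. commersonii had a median of -0.82 in log2, with quartiles of -1.05 and -0.56. S. tuberosum was the higher of the pair in 60 of the 813, and the same was not counted over all clones. No clone was 2-fold higher in one species and 2-fold lower in the other. Lower clones were few in both, 38 (0.334%) in S. tuberosum and 17 (0.15%) in S. commersonii, so that this absence says little. No test between the species was possible.

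In S. tuberosum but not in S. commersonii 82 clones passed 2-fold, and 428 did the reverse. Most of these were also at least 1.5-fold higher in the other species. Of the 82, 51 reached 1.5-fold in S. commersonii too, and 3 were at or below 0 there (against 5448 of all 11366 clones). Over all clones, 1208 were at least 1.5-fold higher in both species at 2 h and 409 in S. commersonii only. Of the 428, 253 reached 1.5-fold in S. tuberosum (against 11.9% of all clones). There 21 of the 428 were at or below 0 (against 5739 of all clones). The species differed by at least 2-fold for 12 of the 82 and 164 of the 428, which was not counted over all clones. The 82 clones had medians of 1.20 at 2 h and 0.41 at 24 h in S. tuberosum, and 0.70 at 2 h in S. commersonii. At 24 h in S. commersonii their median was 0.16, and 18 of the 82 had passed 2-fold there (against 2.65% of all clones). With 35S::AtCBF3 in S. tuberosum 23 of the 82 passed 2-fold (against 6.99% of all clones), and in S. commersonii 19 did (against 5.81%). In S. tuberosum the median of the 428 clones was 0.66 at 2 h and 1.25 at 24 h, when 287 of them had passed 2-fold (against 11.9% of all clones).

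**Figure D4:**
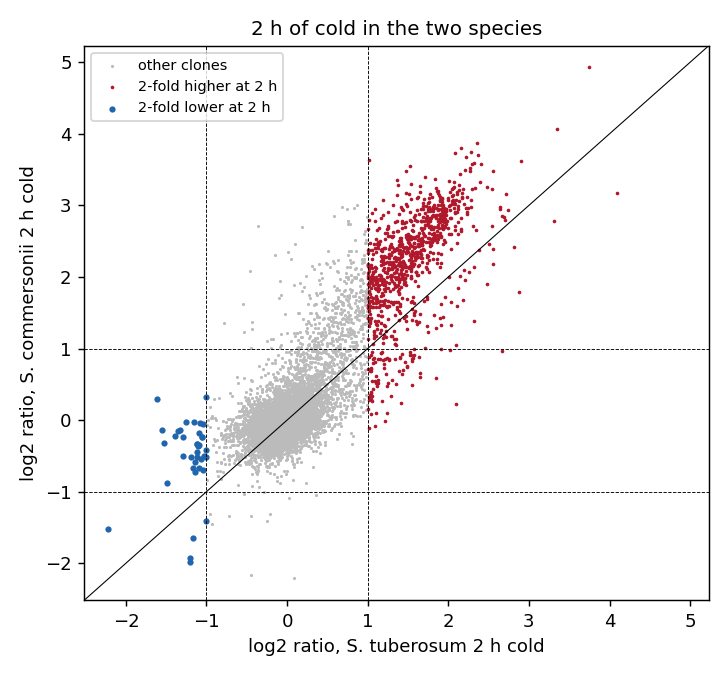
Log2 ratio after 2 h of cold in S. commersonii against that in S. tuberosum for all clones, with clones 2-fold higher in S. tuberosum in red, 2-fold lower in blue and the other clones in grey. Most of the 813 clones higher in both species lie above the solid line of equal values, and 60 lie below it.

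The 38 clones that were lower after 2 h were mostly just past the threshold, with a median of -1.13 in log2. In S. commersonii at 2 h 36 of the 38 had a ratio below 0, against 5448 of all 11366 clones. The median of the 38 there was -0.39, and 5 were at least 2-fold lower. These 5 were 13.2% of the 38 and 29.4% of the 17 lower clones of that column, which were 0.150% of all clones. Later in S. tuberosum, 15 of the 38 were at least 2-fold lower at 24 h (against 1.43% of all clones) and 15 at 7 d (against 6.42%), while 5 had turned 2-fold higher by 7 d (against 4.04%). In S. commersonii 9 were at least 2-fold lower at 24 h (against 1.24%) and 13 at 7 d (against 5.42%). In 9 of the 38 the ratio was within 1.5-fold of the control at both later times, which was not counted over all clones.

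The lowest clone, STMJD18, had a log2 ratio of -2.22, a level 4.65-fold lower in the cold. It stayed low in S. tuberosum, with -1.49 at 24 h and -3.08 at 7 d, and in S. commersonii it had ratios of -1.52, 0.72 and -1.46 at the 3 times. With 35S::AtCBF3 it was among the highest clones of the array, at 3.37 in S. tuberosum and 5.04 in S. commersonii. The direction in the cold at 2 h and 7 d was thus opposite to that with the transgene in both species.

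Of the 38 lower clones, 8 were at least 2-fold higher in both 35S::AtCBF3 columns, against 2.60% of all clones. STMJD18 was 1 of 5 lower clones that were at least 4-fold higher in both 35S::AtCBF3 columns. These 5 clones were singled out after their values had been seen. STMJD18 stood apart from the others, which had nearly the same values in each column. At 2 h it was at -2.22 in S. tuberosum, where the others lay between -1.29 and -1.11. In S. commersonii at 2 h it was at -1.52, and the others lay between -0.50 and -0.33. The ranges that follow include STMJD18. In S. tuberosum their log2 ratios lay between -2.22 and -1.11 at 2 h, between -1.76 and -1.49 at 24 h and between -3.11 and -3.05 at 7 d. With 35S::AtCBF3 they lay between 3.37 and 4.55 in S. tuberosum and, in S. commersonii, between 5.04 and 5.47. In S. commersonii in the cold they lay between -1.52 and -0.33 at 2 h, between 0.13 and 0.72 at 24 h and between -2.10 and -1.46 at 7 d. Whether they carry the same gene was not tested.

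The second lowest clone, STMIH67, had a ratio below 0 in a single cold column, that of 2 h in S. tuberosum. In S. tuberosum its log2 ratio was -1.62 at 2 h, then 0.85 at 24 h and finally 2.53 after 7 d. In S. commersonii it was 0.30, 0.55 and 2.58 at the same times. With 35S::AtCBF3 it was 2.99 in S. tuberosum and 1.23 in S. commersonii. It was 1 of the 5 clones that went from lower at 2 h to at least 2-fold higher at 7 d in S. tuberosum.

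With 35S::AtCBF3 in S. tuberosum 7 others of the 38 clones also had a ratio at least 2-fold down (18.4%, against 7.28% of all clones), and in S. commersonii 1 of the 38 did (2.63%, against 3.11%). The ratios of the 7 with the transgene ran from -6.02 to -1.09 in S. tuberosum and from -1.74 to 0.06 in S. commersonii. At 7 d of cold in S. tuberosum the 7 ran from -3.69 to -1.73. The lower clones of the 2 h column thus held clones at both ends of the S. tuberosum 35S::AtCBF3 column, 12 at least 2-fold higher (against 6.99%) and 7 at least 2-fold lower.

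**Figure D5:**
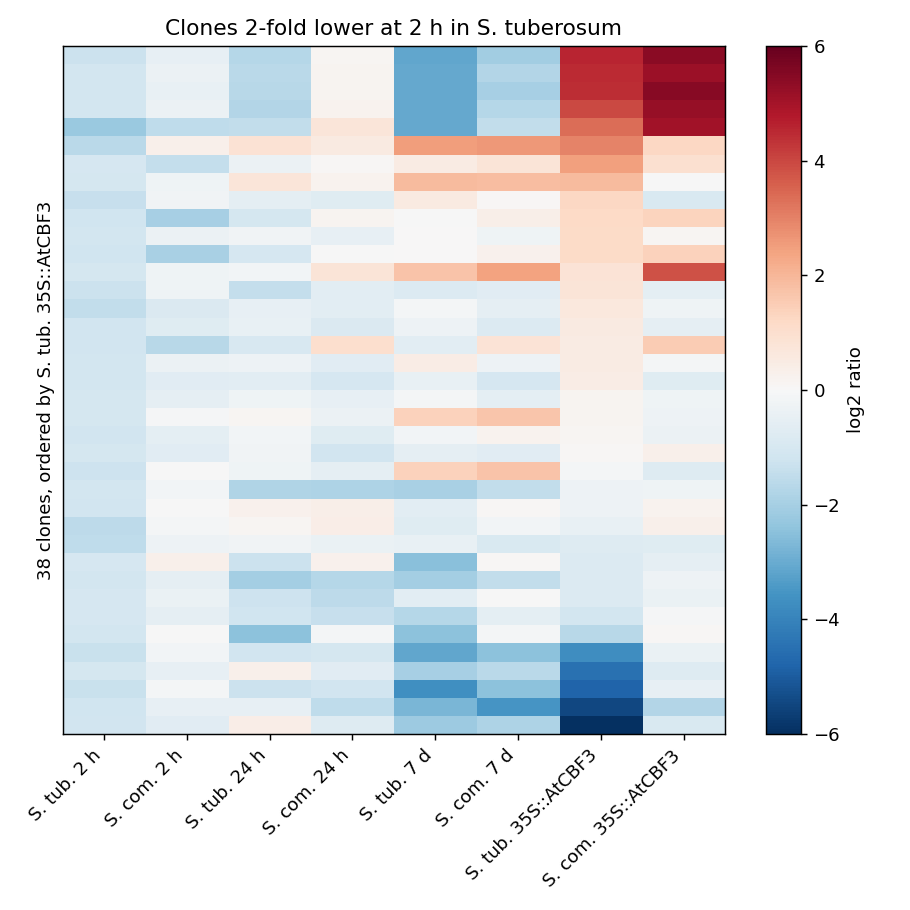
Log2 ratio, as colour, of the 38 clones at least 2-fold lower after 2 h in S. tuberosum (rows, ordered by their ratio with 35S::AtCBF3 in S. tuberosum) in the 8 columns; values past -6 are drawn at -6. The top 5 rows are low in S. tuberosum in the cold at each time and at least 3.37 with 35S::AtCBF3, and the rows at the bottom are low with 35S::AtCBF3 in S. tuberosum.

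The higher clones were spread over the whole clone collection. Grouped by the first 5 characters of their names, the clones fell into 157 blocks of 36 to 92 clones, and 2 of these held no higher clone. The share of higher clones per block ran from 0 to 21.4%, with a median of 7.58%. The highest share, 15 of 70 clones, was that of the block that includes STMHT69. The 40 blocks with the highest shares held 42.5% of the higher clones and 25.5% of all clones, and these blocks were chosen by that share. Block medians of the log2 ratio lay between -0.11 and 0.20. Whether the clones of a block were printed together, or came from the same library, is not known, and its part in the result was not tested.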

How the data were processed

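The authors deposited 1 value per clone and sample, in 8 columns of 11366 clones with 0 missing values. Per the labels, 3 slides stand behind each column, and 2 behind that of S. tuberosum 35S::AtCBF3. The deposited values were read as log2 ratios of cold or transgenic over warm wild type, because the submitters' processing notes name limma, which works on that scale. Log base, direction, centring, background correction and normalization are not stated in the labels or the file. The column medians lay between -0.0075 and 0.011. Both dyes are listed for each channel, and with 3 slides they cannot be balanced, so dye bias may remain in single clones. Intensities and single slides were not analysed here, dim clones could not be told from bright ones, and precision is limited by the few slides.

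Counts used at least 2-fold. Named clones are the 2 highest and 2 lowest of the 2 h column. Clones, classes and lists were chosen with earlier results of these data known. Gene lists fixed for the case that clones had gene names were not run. Other settings tried were a threshold of 1.5-fold or 3-fold, median centring of each column, scaling of all columns to the spread of the 2 h column, and blocks of 4 name characters. The counting step was tried on simulated independent normal values with set folds added. That trial checks the threshold step only and says nothing about the reported counts. Python 3.11.15, pandas 2.3.3 and SciPy 1.17.1 were used.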

Additional observations from a re-analysis of the deposited data

Results flagged for a closer look

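STMIH67 changed direction between conditions. Its log2 ratio was -1.62 after 2 h of cold in S. tuberosum and was above 0 at 24 h (0.85) and 7 d (2.53) in the same species and at 2 h in S. commersonii (0.30). With 1 value per column these differences were not tested.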

How the results depend on the processing

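Of 73 values recomputed under other settings, 40 stayed close to the reported ones and 33 moved. The median of the higher clones in the S. tuberosum 35S::AtCBF3 column changed sign near 0, from -0.023 to 0.00054 at 1.5-fold, and no other value changed sign. Close meant within 1.5 times for a count and within a 95% binomial interval over clones for a share or a median. That interval takes clones as independent, although they share slides and RNA, and it says nothing about plants. For a named clone, close meant a shift smaller than the spread of the 2 h column. Named clones were recomputed with median centring only, a shift far too small to move them. With the threshold at 1.5-fold, 1358 clones were higher and 184 lower (88.1% higher), and 150 were higher in S. tuberosum but not in S. commersonii. The medians of the higher clones were then 1.96 in S. commersonii at 2 h and 1.85 in S. tuberosum at 24 h, 82.5% were still higher at 24 h, and 32 lower clones were higher in both 35S::AtCBF3 columns. At 3-fold, 369 were higher and 2 lower (99.5% higher), 345 were higher in both species and 24 in S. tuberosum alone. The same medians were 2.74 and 2.84, the richest blocks held 51.2% of the higher clones, and 1 lower clone was higher in both 35S::AtCBF3 columns. With columns scaled to one spread, the median at 24 h in S. tuberosum was 1.38, 77.5% were still higher at 24 h, and 4 of the 10 highest clones and 5 lower clones were higher in both 35S::AtCBF3 columns. With blocks of 4 name characters the richest blocks held 33.1%. Alternatives for the 24 h share, the 35S::AtCBF3 counts and the named clones were added after seeing the data. No paired analysis was possible because each group has 1 combined value per clone, and leaving out a slide was not possible for the same reason.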
